A study of Mus musculus with 12 samples.

Results

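Induced regulatory T cells (iTreg) labelled KO for Hrd1 were compared with iTreg labelled WT across 12038 genes. These are 6 of the 12 libraries in the series, taken by their labels, with 3 libraries per label. The other 6 libraries, natural Treg (nTreg) with the same 2 labels, share the fit, so they also set the spread behind the iTreg p-values, and they show where the effect of the KO label differed. All cells were from spleen and lymph nodes of C57BL/6 mice at an age of 8 weeks. The genotype behind the WT label was Hrd1 +/flox with FoxP3-cre and GFP, and that behind the KO label was Hrd1 flox/flox with the same FoxP3-cre and GFP. Every library therefore came from a Cre-carrying animal with at least 1 floxed allele, and no group had 2 intact alleles. To obtain iTreg, CD4 T cells were kept in IL-2 and TGF-beta for 5 days, after which the GFP-positive cells were taken. Because Foxp3 drives the Cre, recombination in iTreg can begin only once a cell turns on Foxp3, and the GFP gate keeps only cells that did so. The labels do not say whether GFP-positive cells were removed before the culture, nor whether each replicate is a mouse of its own. The p-values therefore refer to the spread between these libraries, which may be technical.

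Hrd1, whose gene symbol is Syvn1, is a ubiquitin ligase in the membrane of the endoplasmic reticulum (ER). Together with Sel1l and Derlin proteins it moves misfolded proteins out of the ER to the proteasome, a route called ER-associated degradation (ERAD). When unfolded proteins build up in the ER, the sensors IRE1, PERK and ATF6 start the unfolded protein response. ATF6 and the spliced form of XBP1 raise genes for chaperones and ERAD, while PERK, through ATF4 and CHOP, raises genes for amino acid uptake and synthesis. Treg are CD4 T cells that restrain immune responses under the transcription factor Foxp3, and TGF-beta with IL-2 can induce them from conventional CD4 T cells.

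The 6 libraries held 9607726 to 13223102 counts. Values are given as TMM-scaled CPM, each library's counts set to a common total, with TMM an edgeR normalisation that evens out differences in library composition. Foxp3 stood at 191 to 393 CPM and Il2ra, the high-affinity IL-2 receptor chain of Treg, at 2445 to 3592 CPM, and the 7 T cell and CD4 markers in the files summed to 1578 to 2412 unscaled CPM. Several summed marker lists of other cells were low under both labels, with 0.932 to 3.1 CPM for 9 B cell genes, 11.3 to 19.7 for 10 NK cell genes, 20 to 31.2 for 5 CD8 T cell genes and 9.41 to 20.1 for 20 myeloid genes. The 7 plasma cell genes summed to 720.4 to 985.6 CPM, of which Irf4, a factor that activated T cells also express, made up 713 to 962 CPM, and Tnfrsf17 was at 0 in all 6 libraries. Pax5, Ncr1, C1qa and Hba-a1, defining markers of B, NK, myeloid and erythroid cells, were at 0 in all 6 libraries. Other members of these lists were not, such as Klrk1 of the NK list at 2.03 to 10.35 unscaled CPM. Mpeg1 of the myeloid list was at 2.66, 3.78 and 5.21 in WT-labelled and 7.08, 12.8 and 7.64 in KO-labelled libraries. No myeloid marker passed, with or without blocking on the replicate number. Among those tested, Lyz2, C1qa, C1qc and Csf3r were at 0 in all 6 libraries, so they could not pass. They entered the test because the filter used all 12 libraries. The KO-labelled library of replicate 2 stood apart from the other 5 on the first 2 principal components, which held 45% and 29.3% of the variance. It also had the lowest Foxp3, at 191 CPM, and Nrp1, a receptor common on Treg, at 62.3 CPM against 255 to 292 CPM in the other 5. Of the 6 libraries, the WT-labelled one of replicate 2 was the only one with Xist, at 2035 unscaled CPM, and without Ddx3y, a Y-linked gene. The KO-labelled library of replicate 2 had no Xist and Ddx3y at 77.4 CPM, so the pair numbered 2 was not matched for these genes. In nTreg, WT and KO replicate 3 held both, with Xist at 723 and 486 and Ddx3y at 102 and 142 unscaled CPM. Whether a library pooled animals was not tested. WT and KO libraries with the same replicate number deviated together, so results of a further fit that blocks on the replicate number are given beside those without it.

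The targeted gene came first. Syvn1 (chr19:6046576-6053712, plus strand, GRCm38) had 61.6, 72.2 and 101 CPM in WT-labelled replicates 1 to 3 and 54.6, 73.1 and 63.1 CPM in KO-labelled replicates 1 to 3. The ranges overlapped, with only the WT library of replicate 3 above all KO libraries. The log2 fold change, KO against WT, was -0.30 (SE 0.17, adjusted p = 0.749). Counts over the whole gene do not show whether the floxed exons were lost, since the remaining exons can still be transcribed, and 91 bases of its exons are shared with Mrpl49 on the opposite strand.

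In iTreg 22 genes passed at an adjusted p under 0.05 (0.183% of those tested), 20 higher (0.166%) and 2 lower (0.0166%) with the KO label. Most of the 20 encode proteins that fold, modify, export or degrade client proteins of the ER. In order of fold change they were Derl3, Slc7a3, Sdf2l1, Hspa5, Pdia6, Manf, Atf5, Hyou1, C630004H02Rik, Sec24d, Slc35b1, Hsp90b1, Herpud1, Calr, Dnajb11, Sel1l, Serp1, Ccr8, Pdia3 and AI662270, and the 2 lower genes were Ecm1 and Pglyrp1. For all 22 the KO range lay wholly on one side of the WT range, while every KO library was above every WT library for 4.68% of all genes and below for 4.95%. The change was positive for 47% of all genes tested. Counts for the lists below are to be read against these shares. With the replicate block 114 genes passed (0.947%), 81 higher (0.673%) and 33 lower (0.274%), and they included all 22. Xist, high only in the WT-labelled library of replicate 2, was among the 33 lower genes. Of the 114 genes 9 were placed on the X chromosome, against 394 of the 12038 tested. Some of these, such as Slc7a3 and Magt1, were higher, and others, such as Prdx4 and Il2rg, were lower. WT replicate 2 was the highest library for Prdx4 and Il2rg, and its part in these calls was not tested. The rises were uneven across the numbered pairs, with medians over the 20 genes of 1.16, 1.42 and 0.79 (log2 CPM, KO minus WT) in pairs 1, 2 and 3, and 19 of the 20 were smallest in pair 3.

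**Figure D1:**
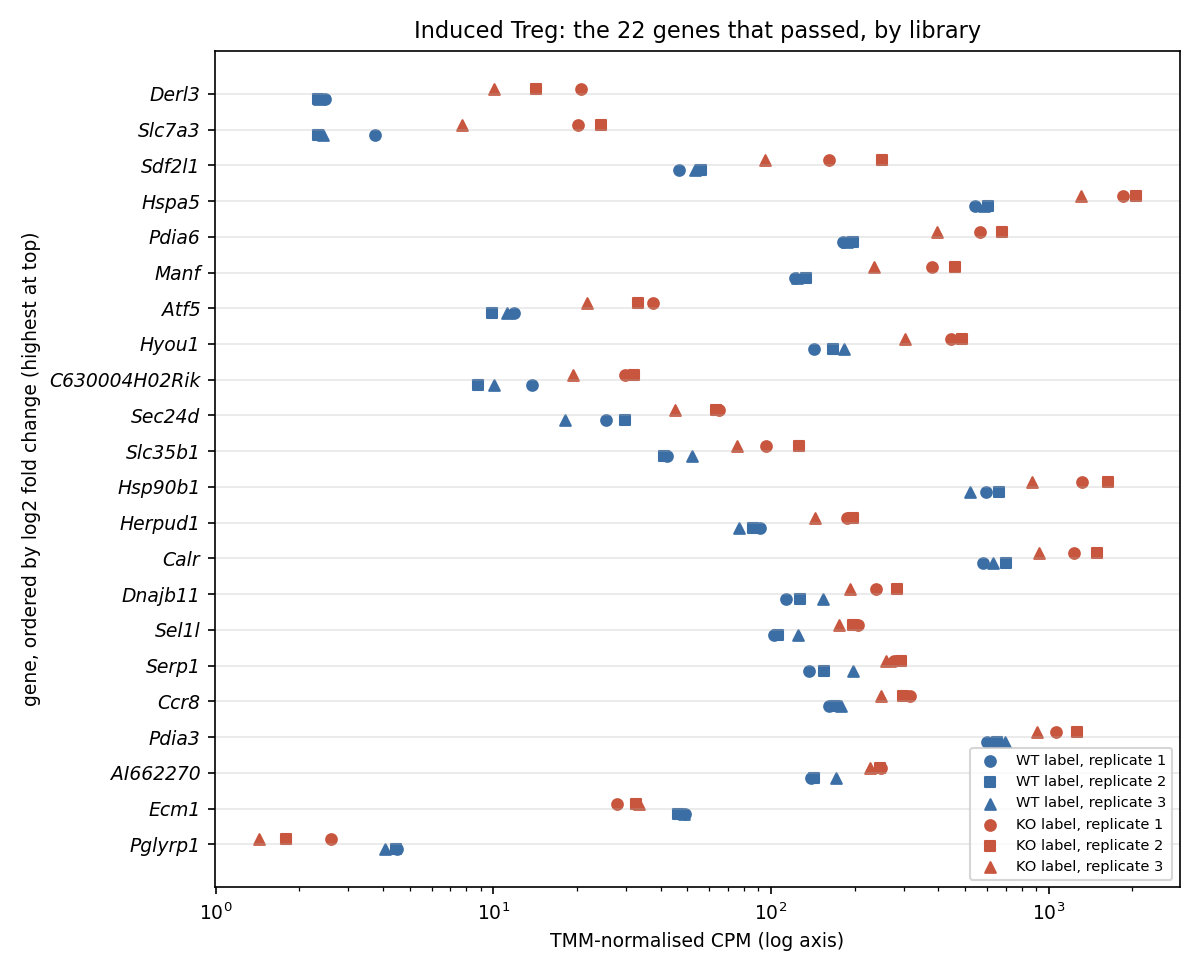
TMM-normalised CPM (log axis) of the 22 genes called in iTreg, 1 row per gene, in the 3 WT-labelled (blue) and 3 KO-labelled (red) libraries, with the marker shape giving the replicate number. KO and WT points do not overlap in any row, and among the 20 higher genes the KO triangle (replicate 3) is most often the one nearest to WT.

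The number of calls depended on single libraries. Without WT replicate 1 no gene passed (763 at an unadjusted p under 0.05), and without WT replicate 2 only 1 did. It was 43 without WT replicate 3, 9 without KO replicate 1, 10 without KO replicate 2 and 64 without KO replicate 3. Of the 9 and 10 genes called without KO replicate 1 or 2, 8 and 9 were among the 22. DESeq2 called 99 genes, limma voom 32, and edgeR on the 6 iTreg libraries alone none (527 at an unadjusted p under 0.05), or 23 once the block was added, of which 11 were among the 22. DESeq2 called all 22 and limma voom 20 of them. None of the 22 changed its direction in any of these fits.

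**Figure D2:**
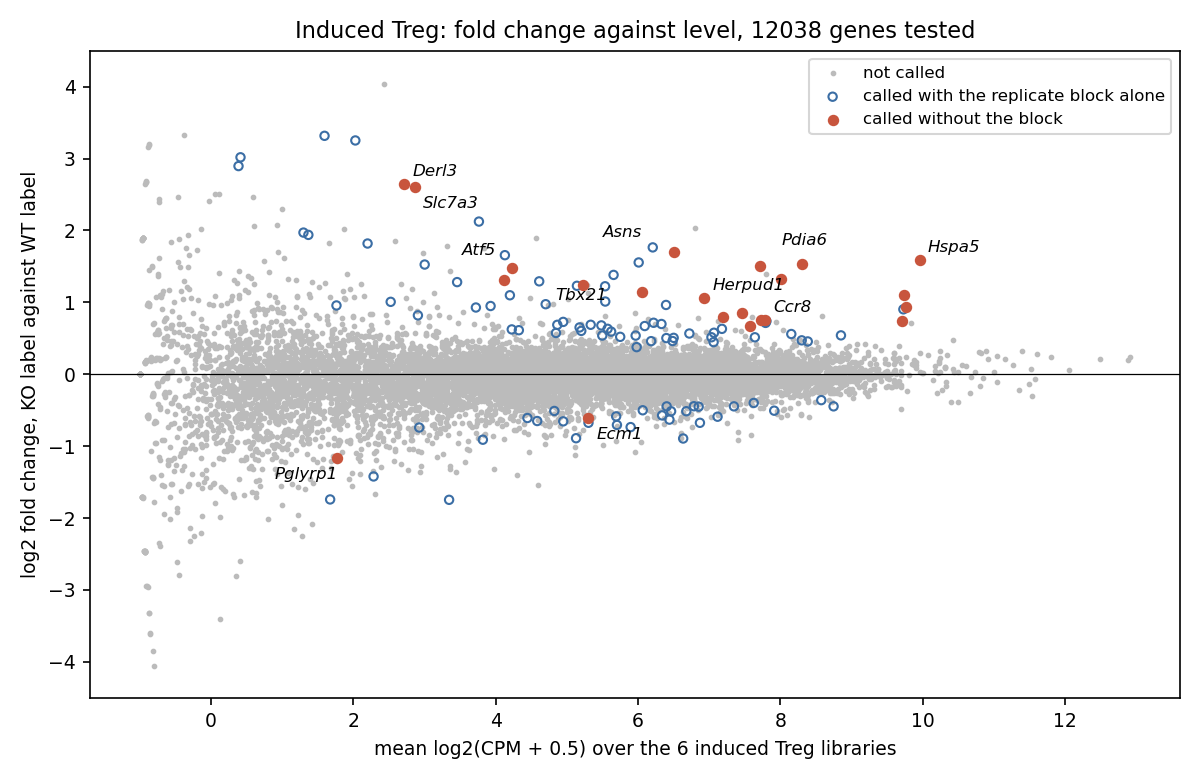
Log2 fold change (KO against WT label) against the mean log2(CPM + 0.5) of the 6 iTreg libraries, 1 point per gene tested, with Xist and Eps8l1, 2 genes beyond the axis, left out. Filled red points are the 22 genes called, open blue circles those called only with the replicate block; Hspa5 is the most abundant of the 22 and 3.01-fold higher.

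The most abundant of the genes that rose were chaperones of the ER lumen. Hspa5, which encodes BiP, the main ER chaperone of the Hsp70 family, had 542, 605 and 585 CPM in WT-labelled libraries and 1853, 2061 and 1306 CPM in KO-labelled ones. All 3 KO libraries were more than 2-fold above the highest WT library, and the mean rose from 577 ± 32.1 to 1739.8 ± 390.0 CPM (SD, n = 3 per label). That is 3.01-fold (log2 1.59, SE 0.19, adjusted p = 0.00601). Hsp90b1, the ER member of the Hsp90 family, rose from 595, 664 and 522 CPM to 1315, 1640.2 and 872 CPM (log2 1.10, adjusted p = 0.043), and 10.3% of its exon bases are shared with a pseudogene on the opposite strand. Calr, the calcium-binding chaperone of glycoproteins, went from 582, 699.8 and 629 CPM to 1232, 1487 and 925 CPM (log2 0.93, adjusted p = 0.0316). In each of these 3 genes replicate 3 was the lowest KO library and replicate 2 the highest.

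Helpers of BiP moved with it. Hyou1, a nucleotide exchange factor for BiP, had 143, 168 and 184 CPM in WT-labelled libraries and 443, 488 and 305 CPM in KO-labelled ones (log2 1.32, adjusted p = 0.00601). Its J-domain partner Dnajb11 had 113, 128 and 154 and 239, 284 and 193 CPM (log2 0.86, adjusted p = 0.043), and the stress-induced Sdf2l1, which binds Dnajb11, had 46.7, 56.2 and 53.1 and 161, 252 and 95.5 CPM (log2 1.70, adjusted p = 0.0245). Sdf2l1 had the widest KO spread of the group, with replicate 2 far above replicate 3. Manf, an ER-retained factor that is released under stress, had 122, 134 and 124 and 381, 461 and 236 CPM (log2 1.50, adjusted p = 0.0072). Of the 27 listed ER chaperones and folding helpers tested, 7 rose and none fell, 21 had a positive change, 11 had all KO libraries above all WT libraries, and the median was 0.296 against -0.01 for all genes, or 0.166 without KO replicate 2. Leaving out a library gave 0 calls in this list without WT replicate 1 or 2, 5 without WT replicate 3, 3 without KO replicate 1, 4 without KO replicate 2 and 8 without KO replicate 3. The block raised the count to 10 through Creld2, Dnajc3 and Creld1. Creld2, a stress-induced ER protein, missed the threshold without the block, with 40.1, 43 and 33.6 and 124, 163 and 57.4 CPM (log2 1.56, adjusted p = 0.0512, 0.017 with the block), and so did Dnajc3, an ER co-chaperone that curbs PERK, at log2 0.63 (adjusted p = 0.0578, 0.0204 with the block).

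Disulfide isomerases, which form and reshuffle the disulfide bonds of new ER proteins, divided into members that rose and members that did not. Pdia6 rose from 181, 197 and 187 CPM to 564, 676 and 396 CPM (2.89-fold, log2 1.53, SE 0.16, adjusted p = 0.0041). Pdia3, the isomerase that works with calreticulin and calnexin, rose from 598, 652 and 695 to 1063, 1266 and 909.6 CPM (log2 0.73, adjusted p = 0.0342). Pdia4 (log2 0.74) and Txndc11 (log2 0.63) passed only with the block, at adjusted p = 0.0137 and 0.0477. Prdx4, the ER peroxiredoxin that uses hydrogen peroxide to oxidise disulfide isomerases, went the other way. It had 111, 115 and 97.2 CPM in WT-labelled libraries and 76.3, 69.5 and 62.9 CPM in KO-labelled ones, without overlap (log2 -0.63, adjusted p = 0.0512, 0.00866 with the block). Over the 18 genes of the list 2 rose, 9 were positive, 7 had every KO library above WT, and the median was 0.06, running from -0.019 without KO replicate 2 to 0.29 without WT replicate 2. The list had 0 calls without WT replicate 1, 1 without WT replicate 2, KO replicate 1 or KO replicate 2, 3 without WT replicate 3 and 4 without KO replicate 3.

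Promoters were searched because these genes moved together. The 2 motifs of interest were the ER stress response element (ERSE: CCAAT, any 9 bases, then CCACG) and ERSE-II (ATTGG, any base, then CCACG), known as binding sites of ATF6 and XBP1 with NF-Y. Both strands were read in RefSeq windows (GRCm38.p6) from 250 bases before to 50 bases after each start site. Of the 20 genes that rose 15 had a window, and ERSE was found in 5 of them (33.3%), namely Hspa5, Pdia6, Hsp90b1, Calr and Derl3, against 18 of 9636 tested genes with a window (0.187%). ERSE-II was found in 2 of 15 (13.3%), Herpud1 and Dnajb11, against 8 of 9636 (0.083%). Of the 81 genes called higher with the block 60 had a window, and ERSE was in 7 of these (11.7%) and ERSE-II in 2 (3.33%). Without the block, the windows of the other 8 genes, among them Sdf2l1, Sel1l, Pdia3 and Ccr8, held neither spelling, and so did those of Ecm1 and Pglyrp1. The commoner single elements CCACG and CCAAT were in 80% and 93.3% of the 15 genes and in 52.5% and 43.2% of all. Stretches with the motif letters in capitals, 5′ to 3′ along the gene's strand, show the shared spelling. Hspa5 is from chr2:34772020-34772048 (plus strand, motif starting 65 bases before the start site), Pdia6 from chr12:17266471-17266529 (plus, 98 bases), Hsp90b1 from chr10:86705513-86705676 (minus, 2 sites, 212 and 107 bases), Calr from chr8:84847055-84847113 (minus, 162 bases), Derl3 from chr10:75893222-75893280 (plus, 156 bases) and Herpud1 from chr8:94386357-94386415 (plus, ERSE-II, 52 bases). In Calr, Derl3 and the nearer site of Hsp90b1 the element lies on the opposite strand, so it reads CGTGG, 9 bases, ATTGG.
Hspa5: cttcaCCAATcggaggcctCCACGacggg
Pdia6: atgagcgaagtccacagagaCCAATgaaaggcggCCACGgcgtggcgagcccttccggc
Hsp90b1: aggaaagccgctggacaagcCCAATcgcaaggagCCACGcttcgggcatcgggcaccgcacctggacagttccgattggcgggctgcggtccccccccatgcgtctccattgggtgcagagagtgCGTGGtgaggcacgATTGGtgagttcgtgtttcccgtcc
Calr: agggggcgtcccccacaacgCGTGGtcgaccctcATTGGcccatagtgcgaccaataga
Derl3: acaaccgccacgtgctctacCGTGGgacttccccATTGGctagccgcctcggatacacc
Herpud1: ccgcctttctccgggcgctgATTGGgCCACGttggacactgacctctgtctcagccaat
Of all 18 genes with ERSE, 15 had a positive change in iTreg, 9 had every KO library above every WT library, none had the reverse, and the median log2 fold change was 0.574. Among those that did not pass were Canx (log2 0.30, adjusted p = 0.463), the membrane-bound glycoprotein chaperone, and Syvn1 itself. A match of letters is a description and does not show that a factor was bound.

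ERAD genes next to Hrd1 showed large changes in few members. Derl3 (chr10:75893413-75895941, plus strand), the stress-induced Derlin, had 2.48, 2.34 and 2.35 CPM in WT-labelled libraries and 20.8, 14.3 and 10.1 CPM in KO-labelled ones. It was low throughout, and its rise was the largest among the 22 genes at 6.25-fold (log2 2.64, SE 0.28, adjusted p = 0.0041). Herpud1, a ubiquitin-like membrane protein of the Hrd1 complex, rose from 91.1, 85.9 and 77 to 187, 198 and 145 CPM (log2 1.06, SE 0.13, adjusted p = 0.00639). Sel1l, the adaptor that holds the Hrd1 complex together, rose from 103, 106 and 125 to 205, 198 and 176 CPM (log2 0.80, adjusted p = 0.0195). These were the only 3 of 30 ERAD genes tested that passed, with or without the block. Edem1, which trims mannose from misfolded glycoproteins, was at log2 0.42 (adjusted p = 0.351) and Derl1 at 0.30 (adjusted p = 0.511). The list had 23 positive members and a median of 0.1 (0.153 without WT replicate 3). None of the 30 passed without WT replicate 1 or 2, 2 without KO replicate 1 or 2, and 4 without WT or KO replicate 3.

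Among the sensors and transcription factors of the unfolded protein response 1 of 17 tested genes passed and 16 had a positive change (median 0.238, or 0.437 without WT replicate 2). None passed without WT replicate 1 or 2, and 2 did without KO replicate 3. Atf5 (chr7:44812256-44816658, minus strand), a factor of the ATF4 family, had 11.9, 9.87 and 11.2 CPM in WT-labelled libraries and 37.6, 33.1 and 21.8 CPM in KO-labelled ones (log2 1.48, SE 0.18, adjusted p = 0.00682). Ddit3, which encodes CHOP, had 34.7, 23.1 and 19.3 and 53, 82.1 and 48.2 CPM, and Xbp1 had 288, 289 and 230.1 and 440.2, 368 and 311 CPM. Neither overlapped between labels, yet the adjusted p was 0.0733 for Ddit3 (0.0566 with the block) and 0.351 for Xbp1 (0.0312 with the block). The deposited counts cover whole genes, so the spliced form of Xbp1 was not analysed here. Atf3, a stress-induced partner of these factors, was above WT in every KO library at 4.2, 13.8 and 4.43 against 19.2, 65.1 and 14.1 CPM, and passed only with the block (log2 2.12, adjusted p = 0.514 without and 0.00474 with it). Both libraries numbered 2 were the highest of their label, and without KO replicate 2 its change was 1.15 (adjusted p = 0.863). Atf4 was at 327, 332 and 277 and 354, 557 and 371 CPM (log2 0.45, adjusted p = 0.713).

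Genes of amino acid supply, many of them targets of ATF4 and CHOP, were higher as a list with few calls. Of 27 tested, 1 passed without the block and 8 with it, 24 were positive, 16 had every KO library above every WT library, and the median was 0.56, or 0.337 without KO replicate 2. Over all genes tested 47% were positive and 4.68% had every KO library above every WT library. Leaving out KO replicate 3 gave 5 calls in this list, and leaving out any of the other 5 libraries gave 0. Slc7a3, a transporter of cationic amino acids on the X chromosome, went from 3.75, 2.34 and 2.44 CPM to 20.1, 24.4 and 7.71 CPM (log2 2.60, SE 0.39, adjusted p = 0.0245). Asns, the asparagine synthetase, went from 57.4, 51.1 and 19.6 to 152, 196 and 88.9 CPM (log2 1.76, adjusted p = 0.0965, 0.000763 with the block). WT replicate 3 was the lowest of the WT libraries and KO replicate 3 the lowest of the KO libraries, which is the kind of shared deviation the block removes. The glycine transporter Slc6a9 (log2 1.66), the pseudokinase Trib3 (log2 1.01), cystathionine gamma-lyase Cth (log2 1.53) and the transporter subunit Slc3a2 (log2 0.71) passed only with the block, at adjusted p = 0.0463, 0.031, 0.03 and 0.0423. Exons of Slc6a9 overlap those of Ccdc24 on the opposite strand over 27.8% of their length, and the strand setting of the counting is not given in the sources used here. Cytosolic tRNA synthetases, which load the amino acids, had no call among 20 with or without the block, although 18 were positive and Sars was at log2 0.47 (adjusted p = 0.463). Their median was 0.23, at 0.17, 0.514 and 0.0123 in pairs 1, 2 and 3, and it was 0.0877 without KO replicate 2. Without WT replicate 3, 1 of them passed.

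**Figure D3:**
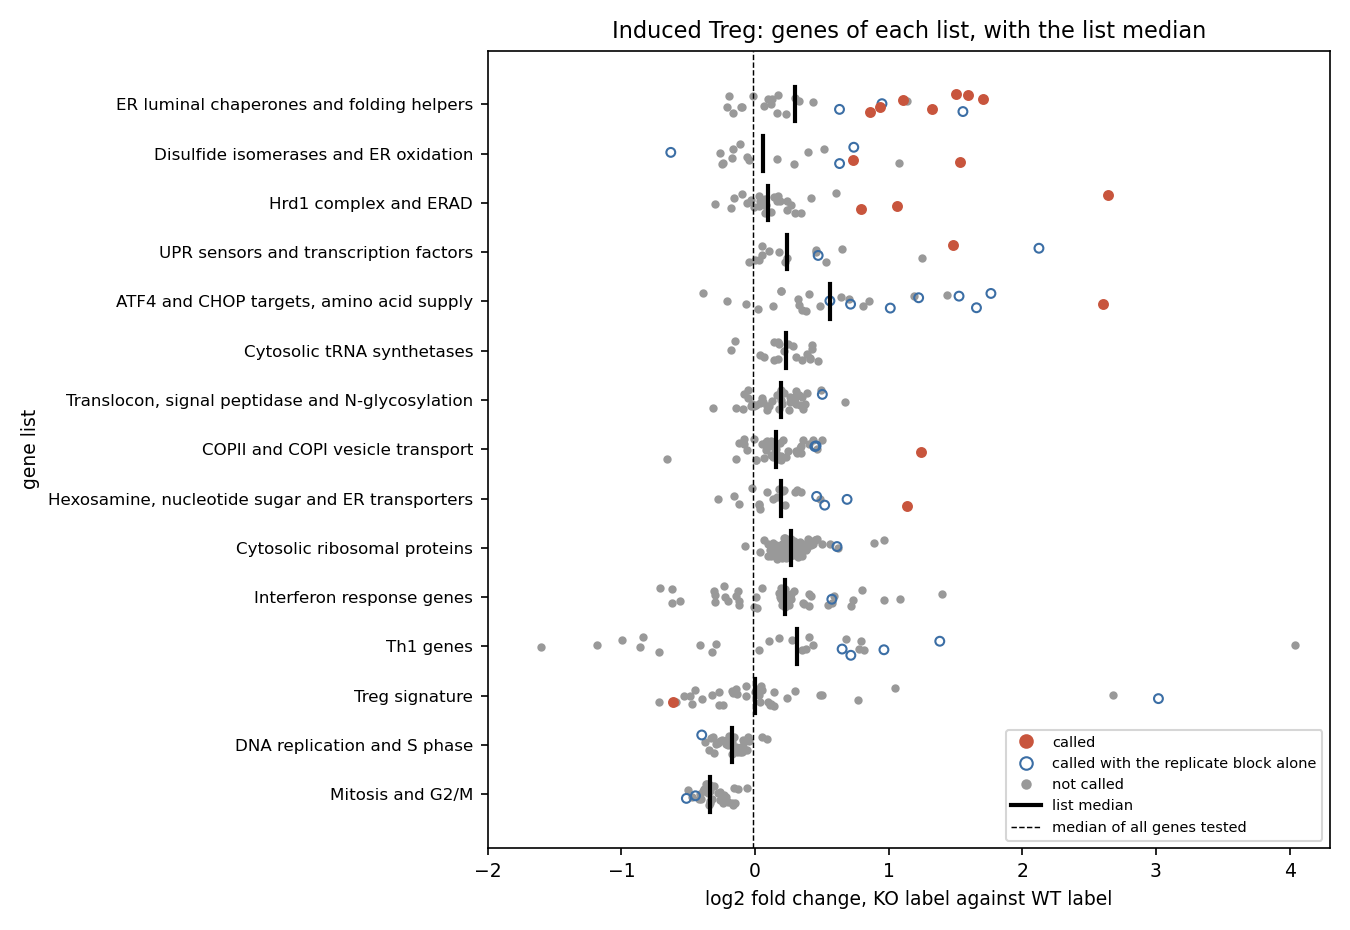
Log2 fold change (KO against WT label) of every tested gene in 15 lists, with the list median as a black bar and the median of all genes dashed; filled red points were called, open blue circles only with the replicate block. Without the block the ER chaperone list has 7 calls, ERAD 3 and disulfide isomerases 2, the ATF4 list has 1 (8 with the block), ribosomal protein genes lie mostly above 0 with 1 call, made with the block, and the 35 mitosis genes all lie below 0.

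Further along the secretory route single genes passed. Sec24d, a cargo-binding subunit of the COPII coat that carries proteins from the ER to the Golgi, had 25.5, 29.7 and 18.2 CPM in WT-labelled libraries and 65.2, 63.6 and 45 CPM in KO-labelled ones (log2 1.24, adjusted p = 0.0286). It was the only one of 45 vesicle transport genes to pass, and Surf4, a cargo receptor (log2 0.46), and Uso1, a tether (log2 0.45), passed only with the block, at adjusted p = 0.031 and 0.0389. Slc35b1, which carries ATP into the ER, rose from 42.1, 41.1 and 51.9 to 96, 126 and 75.7 CPM (log2 1.14, adjusted p = 0.0185). In the list of 22 genes for hexosamine and nucleotide sugars and ER transporters it was the only call, and the block added Slc33a1, Gfpt1 and Gmppb. Serp1, which steadies membrane proteins at the translocon, went from 137, 156 and 197 to 278, 293 and 259 CPM (log2 0.76, adjusted p = 0.0439). In the list of 41 translocon, signal peptidase and N-glycosylation genes none passed and Magt1, an oxidoreductase subunit of the oligosaccharyltransferase, passed with the block (log2 0.50, adjusted p = 0.0156). Of these 41 genes 32 were positive and 12 had every KO library above WT (median 0.193, or 0.0769 without KO replicate 2), Sec61b, a subunit of the protein channel, being at log2 0.67 (adjusted p = 0.223). Of 34 proteasome subunits none passed with or without the block, and none had groups that did not overlap.

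Ribosomal protein genes were mostly higher by a small amount, with log2 fold changes from -0.075 to 0.97. Of 75 cytosolic ribosomal protein genes tested 74 had a positive change, against 47% of all genes tested. Every KO library was above every WT library for 35 of the 75, against 4.68% of all genes tested. The median log2 fold change of the list was 0.272. None of the 75 passed without the block. In pairs 1, 2 and 3 the list median was 0.186, 0.511 and 0.132, and it was 0.154 without KO replicate 2. Rps20 had 540.1, 482 and 493 CPM in WT-labelled libraries and 641, 796 and 589 CPM in KO-labelled ones (log2 0.42, adjusted p = 0.388). Rpl10 passed with the block at 13.4, 15.3 and 18.9 and 24.4, 23.7 and 24.6 CPM, but its level is low for a ribosomal protein gene, and reads may have been divided with near-identical copies, so its value is uncertain.

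A further 5 of the 22 genes have roles outside ER folding. Ccr8 (chr9:120092114-120094906, plus strand), a chemokine receptor found on effector Treg in tissues and on Th2 cells, had 162, 170.3 and 178 CPM in WT-labelled libraries and 316, 298 and 248 CPM in KO-labelled ones (log2 0.75, SE 0.13, adjusted p = 0.043). Ecm1 (chr3:95734147-95739569, minus strand), a secreted glycoprotein in the Treg signature list, had 48.8, 46.3 and 48.5 and 27.9, 32.7 and 33.4 CPM (log2 -0.61, SE 0.10, adjusted p = 0.0316). Pglyrp1, a peptidoglycan-recognition protein, had 4.5, 4.44 and 4.07 and 2.61, 1.8 and 1.43 CPM (log2 -1.17, adjusted p = 0.0439) and is the least abundant of the 22. C630004H02Rik, called Hid1 in GENCODE M21 and known from the sorting of proteins into secretory granules, had 13.7, 8.81 and 10 and 29.9, 32.2 and 19.3 CPM (log2 1.32, adjusted p = 0.043). AI662270, a processed transcript on chromosome 11 that shares 16.2% of its exon bases with a pseudogene, had 139.7, 143 and 172 and 249, 246 and 227 CPM (log2 0.67, adjusted p = 0.0347).

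The genes that define Treg showed 1 call. Of 37 signature genes tested only Ecm1 passed, the median was 0.0027, and 19 were positive. Foxp3 had 377, 306 and 393 CPM in WT-labelled libraries and 392, 191 and 375 CPM in KO-labelled ones (log2 -0.17, SE 0.21, adjusted p = 0.916). Ctla4, an inhibitory receptor, had 385, 291 and 370.4 and 235, 356 and 355 CPM (log2 -0.14, adjusted p = 0.926), and Il2ra had 3095, 3014 and 3311 and 3592, 2445 and 2935 CPM (log2 -0.07, adjusted p = 0.947). The groups overlapped in all 3 genes, and the GFP gate selected cells by the Foxp3 locus, so Foxp3 is not free of the sort. Without KO replicate 2 the change in Foxp3 was 0.096 (adjusted p = 0.932). Nrp1 had 292, 259.9 and 289 and 289.6, 62.3 and 255 CPM, low only in KO replicate 2. Il2rg, the common gamma chain of the IL-2 receptor, passed only with the block at 385, 462 and 450.3 and 308, 381 and 321 CPM (log2 -0.36, adjusted p = 0.0477), and 30.5% of its exon bases are shared with a gene model on the same strand. Il10, an inhibitory cytokine, passed with the block (log2 3.02, adjusted p = 0.00866) at 0.15, 0.753 and 0.0904 and 1.04, 7.18 and 0.477 CPM. KO replicate 2 was the highest by far, and without it the value was 1.09 (adjusted p = 0.865 in the fit without the block). Every other library was at 1.04 CPM or less, so the call of Il10 rests on few reads.

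In the list of Th1 genes, the programme of interferon-gamma-producing helper cells, 4 members had every KO library above every WT library and passed only with the block. Tbx21 (chr11:97098071-97115331, minus strand), which encodes the Th1 factor T-bet, had 22.5, 39 and 35.2 CPM in WT-labelled libraries and 59.3, 127 and 65.5 CPM in KO-labelled ones. KO replicate 2 was well above the other KO libraries, and the log2 fold change was 1.38 (SE 0.27, adjusted p = 0.0881, 0.00326 with the block), or 0.95 without KO replicate 2 (adjusted p = 0.146 without the block). Its target Cxcr3, a chemokine receptor, had 31.8, 29 and 25 and 51, 46.7 and 37.4 CPM (log2 0.65, adjusted p = 0.206, 0.0379 with the block). The chemokine Ccl4 had 59.8, 69.5 and 54.6 and 135, 152 and 72.5 CPM, and Il12rb1, a receptor chain for IL-12, had 46.8, 63.1 and 66.7 and 69.9, 129 and 91.2 CPM, at adjusted p = 0.0213 and 0.0287 with the block. None of these was called in the fit without the block, and Ifng itself overlapped at 16.1, 28 and 6.05 and 39.1, 31.4 and 16.1 CPM (log2 0.78, adjusted p = 0.823, 0.111 with the block). Over the 26 Th1 genes tested 17 were positive and the median was 0.314. It was 0.191, 0.251 and 0.0758 in pairs 1, 2 and 3, and 0.1005 without KO replicate 2. Gata3, the Th2 factor, was lower with the block alone (log2 -0.51, adjusted p = 0.0227) at 28.1, 29.2 and 47 and 18.1, 18.1 and 36.4 CPM, where the groups overlapped but each pair fell. Of 49 interferon response genes none passed without the block, 1 passed with it, Isg20, an interferon-induced exonuclease (log2 0.57, adjusted p = 0.819 without the block and 0.0227 with it), and 34 were positive. Their median of 0.221 was not stable in direction. It was 0.31, 0.074 and -0.062 in pairs 1, 2 and 3 and ran from -0.057 without KO replicate 3 to 0.432 without WT replicate 3, and 3 genes passed when either of these 2 libraries was left out. Ifngr1, a chain of the interferon-gamma receptor, was lower with the block alone at 132, 120.1 and 133 and 84.8, 93.2 and 105 CPM (log2 -0.44, adjusted p = 0.0389).

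**Figure D4:**
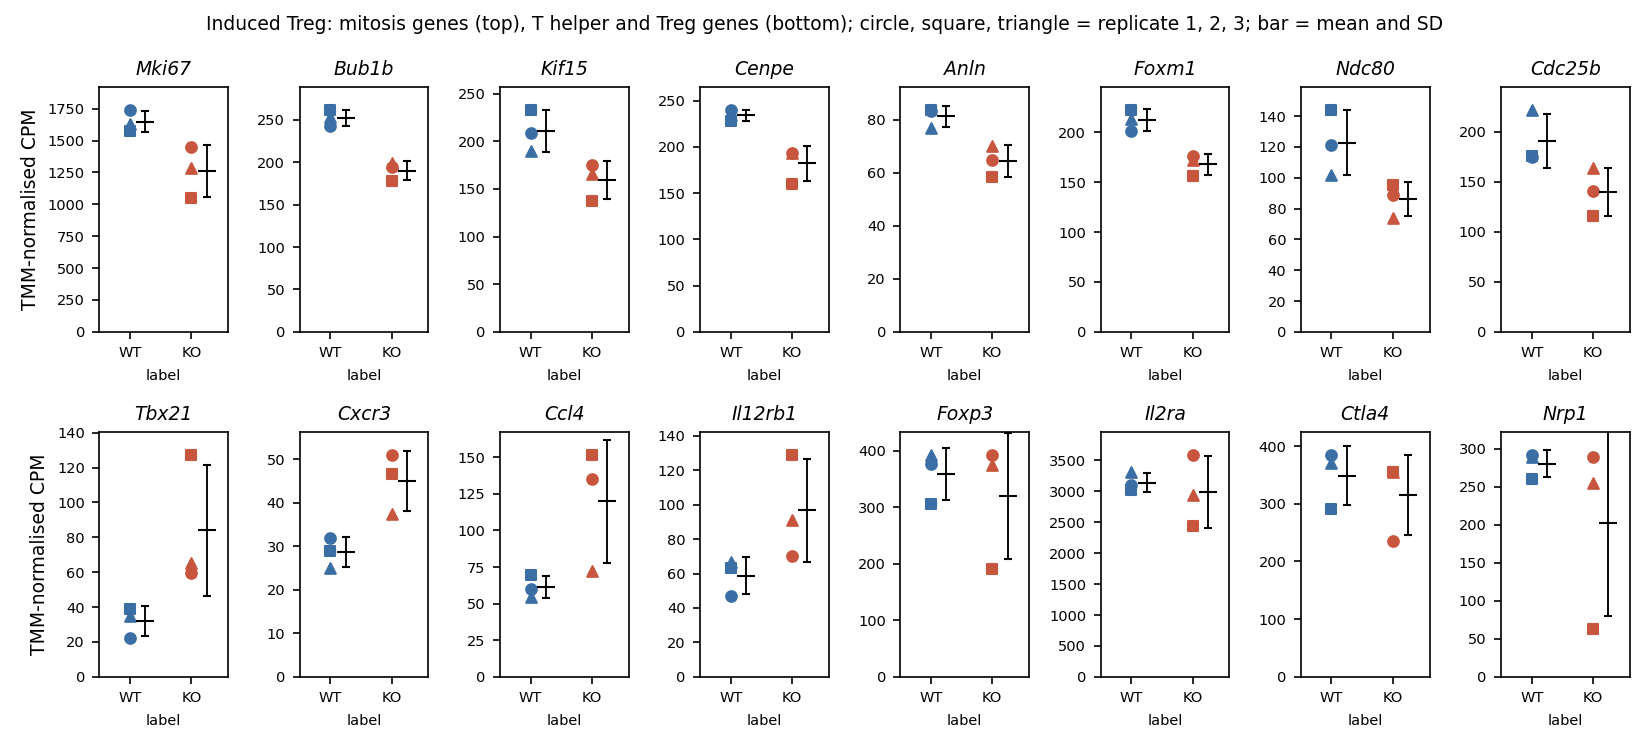
TMM-normalised CPM (axes from 0) in the 6 iTreg libraries for 8 mitosis genes (top) and 8 T helper and Treg genes (bottom), with the mean and SD of each label. KO points lie below WT points for all 8 mitosis genes and above them for Tbx21, Cxcr3, Ccl4 and Il12rb1, while Foxp3, Il2ra, Ctla4 and Nrp1 overlap. The genes were picked for display. Of the 35 mitosis genes tested, 24 had every KO library below every WT library, against 4.95% of all genes tested. The Th1 genes shown are the 4 of 26 called with the block, and 1 other of the 26 lay wholly below WT.

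Genes of mitosis were lower as a list, each by a small amount. All 35 mitosis and G2/M genes tested had a negative change, where 47% of all genes tested had a positive one. The median was -0.34 (0.793-fold). Every KO library was below every WT library for 24 of the 35, against 4.95% of all genes tested. None of the 35 passed without the block, and 4 had an unadjusted p under 0.05. Mki67, the proliferation antigen Ki-67, had 1742, 1577 and 1626 CPM in WT-labelled libraries and 1451, 1049 and 1288 CPM in KO-labelled ones (log2 -0.38, adjusted p = 0.667). Ndc80, of the kinetochore, had 122, 144 and 102 and 89, 95.1 and 73.7 CPM and Cdc25b, a phosphatase that promotes entry into mitosis, 175, 176 and 222 and 140.5, 116 and 164 CPM, and these 2 passed with the block (log2 -0.51 and -0.45, adjusted p = 0.0379 and 0.03). The list median was negative in each pair, at -0.19, -0.46 and -0.33 in pairs 1 to 3, and stayed between -0.35 and -0.27 when any 1 library was left out. DNA replication and S phase genes were lower by less, with 2 of 35 positive and a median of -0.17 (0.00091, -0.25 and -0.23 in pairs 1, 2 and 3, and -0.26 to -0.073 when 1 library was left out, the smallest change being without WT replicate 2), and E2f2, an activator of S phase genes, passed with the block (log2 -0.40, adjusted p = 0.03). Mitosis genes rise and fall with the share of dividing cells, so these values belong to 1 shared measure and not to 35 separate ones. In bulk libraries fewer cells of a kind and less RNA per cell cannot be told apart.

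A few other genes were lower with the block alone and did not overlap between labels. Gm2a, a lipid-binding protein of the lysosome, had 172, 161 and 113 CPM in WT-labelled libraries and 100.3, 96.3 and 82.4 CPM in KO-labelled ones (log2 -0.67, adjusted p = 0.00933 with the block, 0.167 without). Igsf3, an immunoglobulin-family membrane protein, is outside the naming rule because of its low level and was chosen after its values were seen, with 7.28, 8.81 and 5.33 and 3.03, 2.43 and 2.54 CPM (log2 -1.42, adjusted p = 0.03 with the block).

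The same contrast in nTreg shares no library with that in iTreg, but both came from 1 fit and share its estimate of spread. In nTreg 304 of the 12038 genes tested were called without the block and 1083 with it. Of the 22 genes called in iTreg 20 were also called in nTreg in the same direction (90.9% of the iTreg calls and 6.58% of the 304 nTreg calls). With the block the calls shared in direction were 61, which is 53.5% of the 114 iTreg calls and 5.63% of the 1083 nTreg calls, and a further 3 went in opposite directions. Without the block the exceptions were Ccr8, at log2 0.35 in nTreg (adjusted p = 0.275), and Pglyrp1, at -0.18 (adjusted p = 0.682), and for neither did the effects differ between the cell types by the test of the difference (adjusted p = 0.664 and 0.207). The difference of the effects, iTreg minus nTreg, passed for 35 genes (0.291%), 2 higher and 33 lower, and for 217 with the block (1.8%). Without a single library this count ran from 1 (without nTreg WT replicate 3) to 58 (without iTreg KO replicate 2). Atf5 rose by log2 1.48 in iTreg and 5.64 in nTreg (difference -4.15, adjusted p = 4.21e-05). Derl3 rose by 2.64 and 5.70 (difference -3.06, adjusted p = 0.012) and Herpud1 by 1.06 and 2.24 (difference -1.18, adjusted p = 0.0169). Of the UPR factors and ATF4 targets that missed the threshold in iTreg, Xbp1 was at 0.47 against 2.02 in nTreg (difference -1.55, adjusted p = 0.012), Trib3 at 1.01 against 4.76 (difference -3.75, adjusted p = 0.012) and Slc6a9 at 1.66 against 6.23 (difference -4.57, adjusted p = 0.012). For Hspa5, at 1.59 in iTreg and 1.98 in nTreg, the difference of -0.39 did not pass (adjusted p = 0.879), nor did that of Slc7a3 (2.60 and 2.80, adjusted p = 1).

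**Figure D5:**
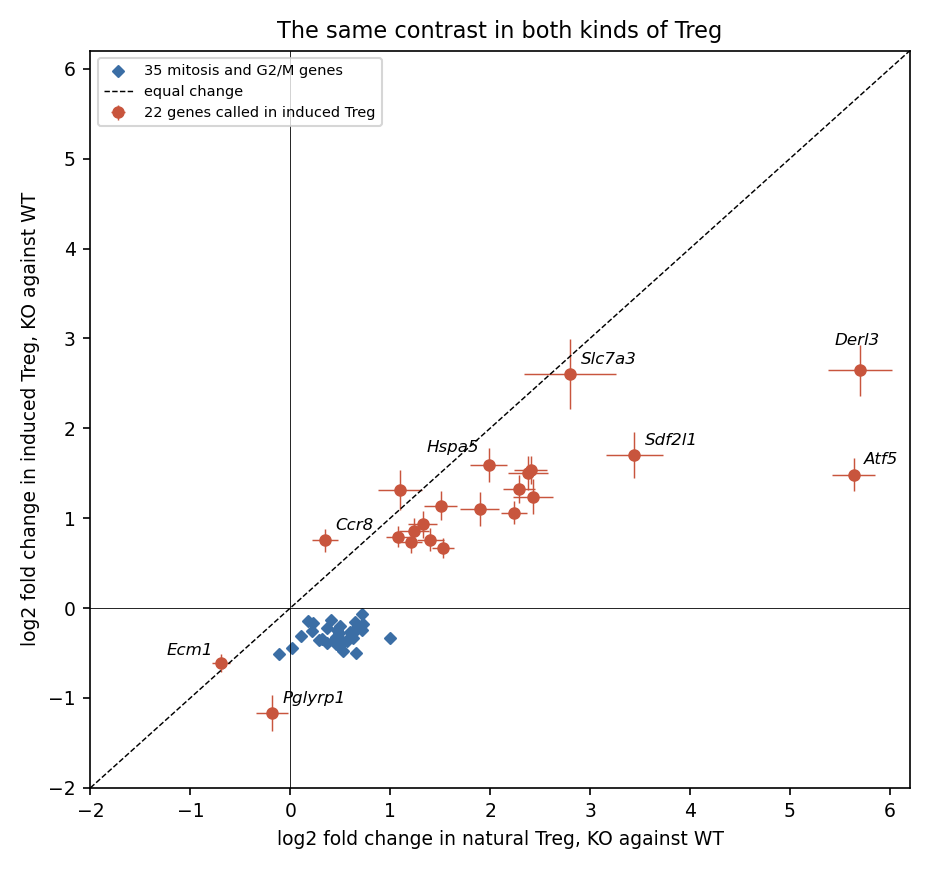
Log2 fold change (KO against WT label) in iTreg (vertical) against nTreg (horizontal) for the 22 genes called in iTreg, with standard errors as bars, and for 35 mitosis genes; the dashed line marks equal change. Most called genes lie below the line, Derl3 and Atf5 farthest, and mitosis genes lie below 0 in iTreg and mostly above 0 in nTreg.

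The mitosis list lay on opposite sides of 0 in the 2 cell types. The median of the 35 mitosis genes was -0.34 in iTreg and 0.485 in nTreg, and 10 of the 35 passed the test of the difference with the block, none without it. Anln, a scaffold of the dividing cell's contractile ring, had a difference of -1.34 (adjusted p = 0.0557, 0.0125 with the block). Cks1b, a cyclin-dependent kinase subunit, was at -0.01 in iTreg and 1.40 in nTreg (difference -1.41, adjusted p = 0.012). Snd1, a nuclease and transcription coactivator, was at 0.41 in iTreg and 1.52 in nTreg (difference -1.11, adjusted p = 0.012). The 2 genes with a higher effect in iTreg were Camk4, a calcium-dependent kinase, with 90.5, 83.3 and 87.4 against 116, 114 and 104 CPM in iTreg (difference 0.81, adjusted p = 0.0355), and Gbp10, an interferon-induced GTPase, with 1.2, 0.904 and 0.904 against 1.77, 2.75 and 3.02 CPM (difference 1.69, adjusted p = 0.0355). Neither was called in iTreg, with adjusted p = 0.351 for Camk4 (0.0698 with the block) and 0.0513 for Gbp10 (0.0578 with the block). In nTreg Camk4 was at log2 -0.45 (adjusted p = 0.031) and Gbp10 at -0.37 (adjusted p = 0.395). Gbp10 was low in all 6 iTreg libraries. With the block the difference also passed for Tbx21 (1.36, adjusted p = 0.0217, 0.298 without) and for Syvn1 (-1.10, adjusted p = 0.0201, 0.101 without), whose change in nTreg was 0.80.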

How the data were processed

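The files the authors deposited hold raw counts, 1 file per library, for 23337 gene symbols each; the submitters' processing notes name cutadapt 1.13, STAR, HTSeq 0.6.1p1, DESeq2 and mm10, with no role or order. Libraries were grouped by their labels. The gene lists, the members and the rules were chosen with earlier results of these data known. Genes were tested with edgeR 4.0.16 in R 4.3.3 (quasi-likelihood, robust, TMM, 4 groups over all 12 libraries, 8 residual degrees of freedom). The filter required a count of 10 and a total of 15 and left 12038 genes. P-values are two-sided and were adjusted by the Benjamini-Hochberg method across all genes tested, with a threshold of 0.05. Fold changes use edgeR's fitted values.

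Same-numbered libraries of the 2 labels had correlations of 0.326 to 0.652 in iTreg and 0.501 to 0.621 in nTreg (deviations from group means), above the 0.1 taken to show pairs, so the replicate number within cell type was also fitted as a block (4 residual degrees of freedom). Other numbers correlated at -0.544 to 0.139 in iTreg. The highest of these also exceeded 0.1, so that cut-off alone does not single out pairs. The pairing comes from the data, since the labels give only numbers.

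Named are Syvn1, the 22 genes called, up to 15 genes each way called only with the block (mean log2 CPM of at least 3, no overlap), up to 6 of smallest p per list, regulators, markers, and up to 5 each way for the difference between cell types. Canx, Creld1, Dnajc3, Igsf3, Isg20 and Rpl10 fall outside this rule and were chosen after their values were seen. Bub1b and Foxm1, drawn with the mitosis genes, also fall outside it. The 32 lists are described by counts and medians, with no set test. Alternatives were RLE size factors, other filters, DESeq2 1.42.0, limma 3.58.1 voom, the block, iTreg alone, and leaving out libraries; fits without both libraries of a number with the block, and for the difference, were added after the data were seen. The test was tried on simulated data. Coordinates are from GENCODE M21 (GRCm38), which placed 11899 of the genes tested. Figures were drawn with matplotlib 3.10.9. Precision is limited by 3 libraries per label. Reads, exons, splice forms and protein sequences were not analysed here. Results for 2 of the genes chosen by the rule are not reported here.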

Additional observations from a re-analysis of the deposited data

Results flagged for a closer look

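The effect of the KO label differed between iTreg and nTreg by edgeR's test of the difference (adjusted over all genes tested) for 14 of the genes described. In 12 of them the effect in iTreg was below that in nTreg, by log2 -4.57 for Slc6a9, -4.15 for Atf5, -3.75 for Trib3, -3.06 for Derl3, -2.35 for Igsf3, -1.55 for Xbp1, -1.41 for Cks1b, -1.18 for Herpud1, -1.11 for Snd1, -0.99 for Canx, -0.86 for AI662270 and -0.81 for Surf4. In 2 it was above, by 0.81 for Camk4 and 1.69 for Gbp10. The adjusted p lay between 4.2e-05 for Atf5 and 0.04 for AI662270. Over all 12038 genes tested 35 passed this test (0.291%). Atf5, Slc6a9, Xbp1, Cks1b, Snd1, Camk4 and Gbp10 were among the genes named for passing it. Canx and Igsf3 were chosen after their values were seen. The count of 14 is therefore not a share of genes chosen without regard to this test. Cultured and sorted cells differ in more than their kind, and what part of the differences belongs to the culture was not tested.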

How the results depend on the processing

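For the iTreg comparison, 22 genes passed, and the count was 22 with RLE size factors, 25 unfiltered, 26 when filtered more strictly and 32 with limma voom, each within 1.5 times. DESeq2 called 99, the replicate block 114, and the 6 iTreg libraries alone 0. Leaving out 1 library gave 0 to 64 calls. Leaving out both iTreg libraries numbered 1, 2 or 3 gave 0, 1 or 75 calls, and 37, 280 or 293 with the replicate block. For the difference between iTreg and nTreg, with 35 genes, DESeq2 called 140, limma voom 98 and the replicate block 217, leaving out 1 library gave 1 to 58, and leaving out both iTreg libraries numbered 1 gave 7. The cause was not tested. Of the 76 genes followed, 4 changed direction in some alternative, none of them among the 22. Foxp3 was at 0.068 under limma voom and ran from -0.34 to 0.096 when 1 library was left out. Il2ra was at 0.105 under limma voom, at 0.026 and 0.0058 without both libraries numbered 2 or 3, and ran from -0.22 to 0.056. Ctla4 was at 0.106 without both libraries numbered 1 and ran from -0.26 to 0.029. Cks1b was at 0.011 with no filter, at 0.0088 and 0.0087 in iTreg alone without and with the replicate block, at 0.103 without both libraries numbered 3, and ran from -0.075 to 0.037. Totals of 9607726 to 13223102 counts leave genes of a few CPM, such as Pglyrp1, with wide counting error.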

Other observations

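The remaining lists held few calls in iTreg. Ccr8 was the only call in the list of effector and tissue Treg genes (22 tested, median 0.043) and in that of Th2 genes (14 tested, median 0.011), and the block brought these to 3 and 4 calls. Leaving out any library but KO replicate 3 ended the call of Ccr8. In 5 lists of stress and metabolism none passed with or without the block, which were cytosolic heat shock chaperones (19 tested, median 0.029), NRF2 and antioxidant genes (20, 0.020), apoptosis and the BCL2 family (24, -0.018), the p38 and JNK kinases (20, -0.00011) and cholesterol and fatty acid synthesis (33, -0.014). The same held for TCR signalling (27, -0.0012), naive and quiescence genes (24, -0.072), Tfh genes (15, 0.096) and immediate early and activation genes (25, 0.086). Th17 genes (15, 0.145), the TGF-beta pathway (24, -0.052) and the IL-2 and STAT5 pathway (20, 0.041) had 1 call each, made with the block alone.

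Genes of oxidative phosphorylation and of glycolysis had medians of opposite sign without a call. Of 58 oxidative phosphorylation genes 48 were positive (median 0.086). Of 27 glycolysis and HIF1 target genes 5 were positive (median -0.23). Over all genes tested 47% were positive. In neither list did any gene have groups that did not overlap. The medians in pairs 1, 2 and 3 were 0.022, 0.348 and -0.13 for oxidative phosphorylation and -0.45, -0.11 and 0.0086 for glycolysis. Leaving out 1 library moved them from -0.050 to 0.167 and from -0.63 to 0.067, so neither direction held in every such fit.

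Of the markers of other cells, 5 plasma cell genes were tested and 1 passed, Derl3, which also belongs to ERAD. Of the erythroid and platelet markers 2 were tested, Beta-s and Itga2b, and neither passed. Beta-s was at 0 in every iTreg library, so it could not pass. Itga2b was low, at 1.68 to 4.06 unscaled CPM in the iTreg libraries. Of the gamma delta T and innate lymphoid markers only Sox13, Zbtb16 and Il23r were found in the files, and none was abundant enough to be tested. Trdc and the Tcrg constant genes matched no symbol in the files, so these values cannot show whether gamma delta T cells were present.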
